A study of Canis lupus familiaris with 10 samples.

Results

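The miR-181 family was represented by 4 of the 320 miRNAs counted, cfa-miR-181a, cfa-miR-181b, cfa-miR-181c and cfa-miR-181d. The members were chosen by name and not by a threshold on their values. Earlier results of these data were known when the members and the tests were chosen. Their levels were measured by small RNA sequencing of unsorted fresh-frozen lymph node tissue, not of sorted lymphoid cells, from 6 dogs with diffuse large B cell lymphoma (DLBCL1 to DLBCL6) and 4 healthy dogs (Healthy2 to Healthy5), 1 library for each dog. DLBCL nodes came from client-owned patients of both sexes and several breeds. They were biopsied under anesthesia, as a wedge or an entire node, and diagnosed by histology and by staining for B cell markers. The healthy dogs were young female purpose-bred hound crosses, euthanized in teaching courses, and their nodes were histologically normal and not reactive nodes. Neither group has a treatment, genotype or transgene in the labels, and the ages of the patients are not given in the sources used here. Origin and the setting of sampling follow the diagnosis and cannot be told apart from DLBCL, and every healthy dog was female whereas the patients were of both sexes. No patient was listed as a hound cross, so breed as listed follows the diagnosis too, and age could not be compared.

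The miR-181 family is among the miRNA families abundant in lymphoid cells. miR-181a is known for setting the sensitivity of developing T cells to antigen, through phosphatases that dampen T cell receptor signaling, and for promoting the B cell lineage when overexpressed in blood progenitors. miR-181b is known to restrain AID, the enzyme that mutates antibody genes in activated B cells. miR-181c and miR-181d are close sequence relatives that are transcribed together from a separate locus. Each miRNA acts through its seed, the short stretch near the 5′ end that pairs with target messages, and the members share that seed, so that their targets overlap. The mature sequences were not used here.

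In the canine annotation UU_Cfam_GSD_1.0, the 4 members matched 6 genes in 3 neighboring pairs, MIR181A-1 with MIR181B-1, MIR181A-2 with MIR181B-2, and MIR181C with MIR181D. No other gene lay between the members of any pair. MIR181A-2 and MIR181B-2 lay within the span of the NR6A1 gene, which encodes an orphan nuclear receptor, and within a long noncoding RNA locus. miR-181a and miR-181b are therefore each made from a pair of genes, and their reads cannot be assigned to one locus. The rows carry no arm (5p or 3p), and reads that fit more than 1 of these closely related miRNAs may have been divided between them in counting.

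Between 10686441 and 25784861 miRNA reads per library were counted in DLBCL and between 30432969 and 34709421 in healthy nodes. miR-148a alone took 31.3% ± 7.80 of these reads in DLBCL (SD, n = 6), against 61.0% ± 9.67 in the healthy group (SD, n = 4), so levels below are counts per 1000000 miRNA reads (CPM) on library sizes adjusted by TMM, a scaling that sets the bulk of miRNAs level between libraries. The lymphocyte markers miR-142, miR-150 and miR-155 were present in every library, with a summed level of 8056 to 20987 CPM in DLBCL and 10877 to 27547 CPM in healthy nodes. Only miR-150 of the 3 was called by edgeR, lower in DLBCL (log2 fold change -2.97), where 2.02% of all miRNAs tested were lower. The log2 fold changes of miR-142 and miR-155 were 0.22 and 0.44. Of the 3 red blood cell markers, 2 (miR-451 and miR-486) were higher in DLBCL by edgeR, where 3.64% of all 247 miRNAs tested were, and the list summed to 5171 to 35566 CPM in DLBCL and 808 to 1070 CPM in healthy nodes. The 4 pancreas markers summed to 32.6 to 663 CPM in DLBCL and 916 to 1951 CPM in healthy nodes, with none called by edgeR. For miR-216a, miR-216b and miR-217 every DLBCL node lay below every healthy node, as for 6.07% of all miRNAs tested. Their log2 fold changes were -2.57, -2.84 and -3.16, whereas miR-375 had 2.04 with overlapping groups. None of the 5 stroma and vessel markers was called (18866 to 70627 CPM in DLBCL and 26911 to 55304 CPM in healthy nodes), nor was the single myeloid marker (3.95 to 88.3 CPM and 16.9 to 38.6 CPM). The muscle list held 8.82 to 352 CPM in DLBCL and 14.7 to 74.6 CPM in healthy nodes with 2 of 3 members tested and none called. The epithelial list held 13.0 to 127 CPM and 10.6 to 26.5 CPM with 2 of 6 tested and none called, and 4 of its members were at 0 in at least 1 library. The part of any of these cell types in the results below was not tested. In unsorted node tissue, fewer cells of a type and less RNA per cell cannot be told apart.

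The family was led by miR-181a in every library, both in lymphoma and in healthy nodes. The order of read levels was miR-181a, miR-181b, miR-181d and miR-181c in 10 of 10 libraries. miR-181a exceeded miR-181b by 1.24-fold to 5.79-fold, with a mean log2 difference of 1.78 ± 0.67 (SD, n = 10). The step from miR-181b to miR-181d was 4.99-fold to 23.1-fold (log2 3.52 ± 0.72, n = 10), and that from miR-181d to miR-181c was 2.49-fold to 89.0-fold (log2 3.25 ± 1.35, n = 10). The two-sided exact sign-flip permutation test gave p = 0.00195 for each step, and 0.00195 after Benjamini-Hochberg adjustment over the 3 steps. This is the smallest p that 10 libraries can give, and it follows wherever a step has the same sign in 10 of 10 libraries. The order was also taken from these libraries, so the p adds nothing to that count. These levels are reads per mature miRNA, compared without correction for length or for how well each molecule is captured in a library.

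By rank among the 320 miRNAs of a library, miR-181a stood at places 22 to 36 in healthy nodes (median 26) and at places 31 to 73 in DLBCL (median 49.5). miR-181b ranked 51 to 68 in healthy nodes and 49 to 95 in DLBCL. The ranks of the rarer members were 110 to 117 for miR-181d and 139 to 187 for miR-181c in healthy nodes, and 107 to 166 and 163 to 248 in DLBCL. miR-181a was therefore among the more abundant miRNAs of the node, whereas miR-181c lay near the middle of the list or lower.

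After TMM adjustment, most DLBCL nodes held less miR-181a than any healthy node, but the difference did not pass the threshold over all miRNAs. The 4 healthy nodes held 1450, 3737, 2440 and 3422 CPM (Healthy2 to Healthy5) and the 6 DLBCL nodes held 775, 1019, 210, 2063, 1397 and 417 CPM (DLBCL1 to DLBCL6). Of the 6 DLBCL nodes, 5 lay below the lowest healthy node and only DLBCL4 lay within the healthy range, while DLBCL5 fell just short of Healthy2. This separation depended on the scaling. In the deposited TPM, which are counts divided by each library's miRNA total, only 1 DLBCL node (DLBCL3) lay below the lowest healthy node. The DLBCL mean of 980 ± 678 CPM (SD, n = 6) and the healthy mean of 2762 ± 1035 CPM (SD, n = 4) corresponded to a log2 fold change of -1.49 (SE 0.55, 95% interval -2.70 to -0.29). By edgeR's quasi-likelihood test the unadjusted p was 0.0187 and the Benjamini-Hochberg adjusted p over the 247 miRNAs tested was 0.114, so miR-181a did not pass the threshold. It ranked 40 of 247 by p, where 26.7% of all miRNAs tested had an unadjusted p under 0.05. With DLBCL4 left out, the log2 fold change was -1.84 and the edgeR adjusted p 0.0453, and limma-voom with sample quality weights gave -1.74 with an adjusted p of 0.00676. These were the only 2 of 22 alternatives under which miR-181a passed. They also called more miRNAs in all, 23 of 244 and 46 of 247, against 14 of 247 in the main fit. The adjusted p was 0.0643 by DESeq2 and 0.412 by edgeR with counts scaled to all miRNA reads. In the group of libraries with a lower share of high-quality bases, which held DLBCL4, DLBCL6 and all 4 healthy nodes, the log2 fold change was -1.17 with an edgeR adjusted p of 0.267.

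**Figure D1:**
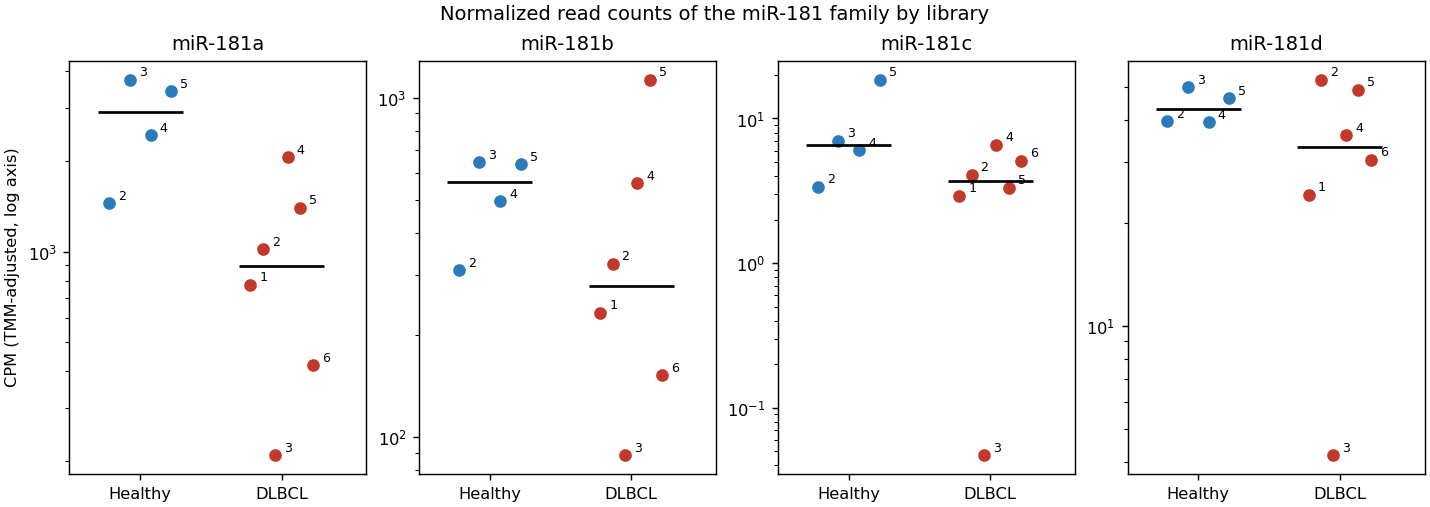
Level of each miR-181 member in CPM (TMM-adjusted, log axis, with a separate scale for each panel) in the 4 healthy (blue) and 6 DLBCL (red) libraries. Each point is 1 library with its number and each black bar is the group median. For miR-181a, 5 of 6 DLBCL nodes sit below the lowest healthy node at 1450 CPM, and DLBCL3 is the lowest library in every panel.

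miR-181b, made from the same loci as miR-181a, showed no such separation. The healthy nodes held 310, 646, 496 and 636 CPM, and the DLBCL nodes held 233, 325, 88.6, 559, 1129 and 152 CPM. Of the DLBCL nodes, 3 lay below the healthy range, 2 within it, and DLBCL5 lay above it at the highest level of all 10 libraries. DLBCL averaged 414 ± 387 CPM (SD, n = 6) against 522 ± 157 CPM for healthy nodes (SD, n = 4), with a log2 fold change of -0.33 (SE 0.62, 95% interval -1.68 to 1.02, edgeR adjusted p = 0.769). Without DLBCL5 the log2 fold change was -0.95 (edgeR adjusted p = 0.264) and without DLBCL3 it was -0.11.

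miR-181d, the more abundant member of the third pair, held 39.6, 49.8, 39.3 and 46.1 CPM in the healthy nodes and 24.1, 52.3, 4.19, 36.0, 49.0 and 30.5 CPM in the DLBCL nodes. Of the DLBCL nodes, 4 lay below the healthy range, DLBCL5 within it and DLBCL2 above it. DLBCL averaged 32.7 ± 17.6 CPM (SD, n = 6) against 43.7 ± 5.13 CPM for healthy nodes (SD, n = 4), and the log2 fold change was -0.42 (SE 0.56, 95% interval -1.64 to 0.80, edgeR adjusted p = 0.677). Without DLBCL3 it was -0.17.

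miR-181c was the rarest member and rested on few reads. There were 59, 192, 115 and 631 reads in the healthy libraries (3.36, 7.04, 6.04 and 18.5 CPM) and 35, 104, 1, 187, 51 and 205 reads in the DLBCL libraries (2.93, 4.06, 0.0471, 6.60, 3.32 and 5.08 CPM). Of the DLBCL nodes, 3 of 6 lay below the healthy range and the others within it, and Healthy5 stood above every other library. The log2 fold change was -1.25 (SE 0.83, 95% interval -3.04 to 0.54, edgeR adjusted p = 0.321), from means of 3.67 ± 2.21 CPM for DLBCL (SD, n = 6) and 8.73 ± 6.69 CPM for healthy nodes (SD, n = 4). Without Healthy5 the log2 fold change was -0.66. The single read in DLBCL3 has an exact Poisson 95% interval of 0.0253 to 5.57 reads, or 0.000982 to 0.216 TPM, and such intervals cover counting error only.

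None of the 4 members passed the thresholds, which were an edgeR adjusted p under 0.05 together with a change of more than 2-fold in either direction, where 5.67% of the 247 miRNAs tested did, 2.02% lower and 3.64% higher in DLBCL. At an unadjusted p under 0.05 the count was 1 of 4 (26.7% of all tested), and DESeq2 called 0 of 4 (17.2% of the 262 that it tested). None of the 4 had groups that did not overlap, against 13.0% of the miRNAs tested (6.07% with DLBCL lower). The log2 fold changes of all 4 members were below 0 and below the median of all miRNAs tested, 0.13. The intervals of miR-181b, miR-181c and miR-181d include changes of more than 2-fold downward, and that of miR-181b a change of 2-fold upward, so changes of that size lay within the error of these libraries.

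The direction for miR-181b and miR-181d depended on the scaling. When counts were scaled to all miRNA reads, the median log2 fold change of the miRNAs tested moved from 0.13 to 0.82, and the log2 fold changes were -0.83 for miR-181a, 0.13 for miR-181b, -0.54 for miR-181c and 0.33 for miR-181d. Relative to that median they were -1.65, -0.69, -1.36 and -0.49, beside -1.63, -0.46, -1.38 and -0.55 relative to the median under TMM. On the deposited TPM scale, which is also set by all miRNA reads, only DLBCL3 of the 6 DLBCL nodes (173 TPM of miR-181a) lay below the lowest healthy node (734 TPM). All 4 members lay below the median miRNA under both scalings. A change of scaling moves all miRNAs by nearly the same amount, so these are not separate results. With miR-148a left out of the total, the log2 fold changes were -1.55, -0.57, -1.25 and -0.48.

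**Figure D2:**
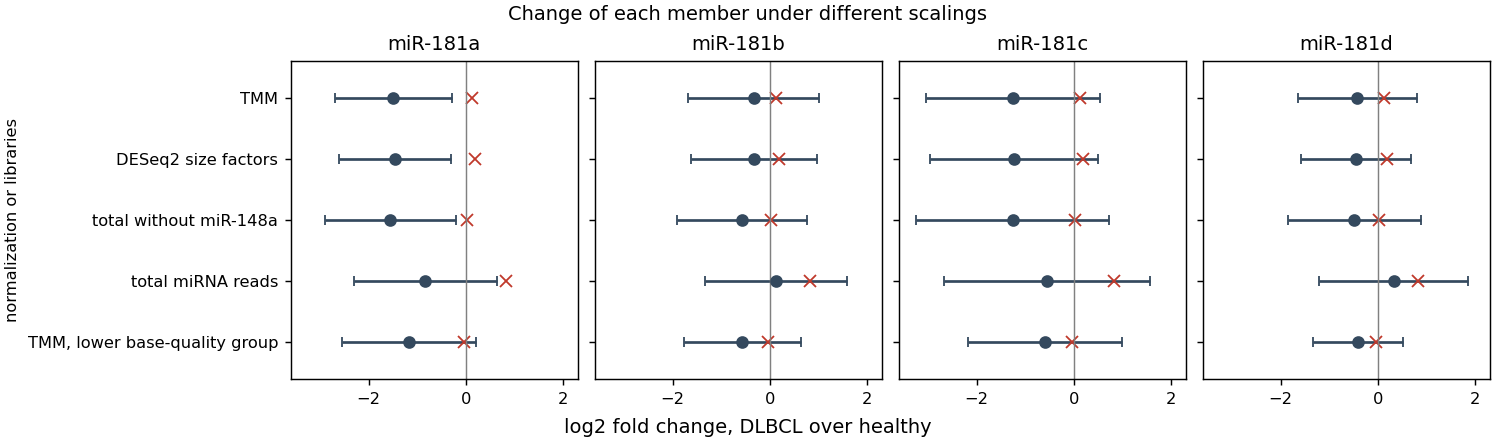
log2 fold change of each member (DLBCL over healthy, dot with its 95% interval from edgeR) under 4 scalings of all 10 libraries, and under TMM in the 6 libraries of the lower base-quality group. Red crosses mark, for each fit, the median over the miRNAs tested, 0.13 under TMM and 0.82 under total miRNA reads. Each dot sits to the left of its cross, and a change of scaling moves dots and crosses nearly together.

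As a share of all miRNA reads, the 4 members together took 0.0249% to 0.465% in DLBCL (mean 0.184% ± 0.150, SD, n = 6) and 0.0913% to 0.457% in healthy nodes (mean 0.282% ± 0.172, SD, n = 4). The lowest share was that of DLBCL3 (Wilson 95% interval 0.0243% to 0.0255%) and the highest that of DLBCL4 (0.462% to 0.469%), so that the DLBCL nodes spanned the whole healthy range. After TMM adjustment the family summed to 302 to 2665 CPM in DLBCL (mean 1431 ± 995) and 1803 to 4439 CPM in healthy nodes (mean 3337 ± 1199), and these ranges also overlapped.

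**Figure D3:**
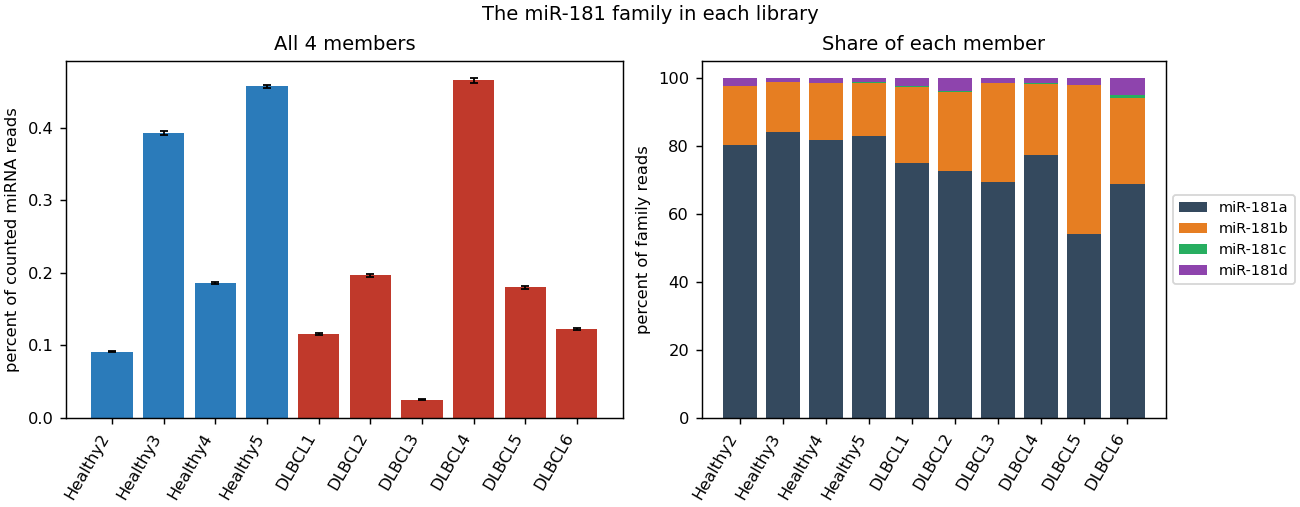
Left, percent of counted miRNA reads taken by the 4 members in each healthy (blue) and DLBCL (red) library, with Wilson 95% intervals. Right, share of each member in the reads of the family: miR-181a holds 80.4% to 84.2% in the healthy libraries and 54.2% to 77.4% in the DLBCL libraries, and miR-181c is too rare to see in most bars.

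The balance between miR-181a and miR-181b differed between the groups. There were 4.67, 5.79, 4.92 and 5.38 reads of miR-181a for each read of miR-181b in Healthy2 to Healthy5, and 3.33, 3.14, 2.37, 3.69, 1.24 and 2.74 in DLBCL1 to DLBCL6. Every DLBCL node lay below every healthy node, and DLBCL5 stood lowest, close to equal amounts of both. The log2 ratio averaged 1.38 ± 0.57 in DLBCL (SD, n = 6) against 2.37 ± 0.14 in the healthy group (SD, n = 4), a difference of -0.99, or a ratio 1.99-fold higher in healthy nodes. The two-sided exact permutation test, with 210 possible assignments of libraries to the groups, gave p = 0.00952, and 0.0286 after Benjamini-Hochberg adjustment over the 3 ratios tested (the smallest raw p possible was 0.00476). This ratio is taken within a library and does not depend on its scaling.

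In reads of the family, miR-181a made up 82.4% ± 1.61 in healthy nodes (SD, n = 4) and 69.6% ± 8.22 in DLBCL (SD, n = 6), and miR-181b made up 16.0% ± 1.20 and 27.5% ± 8.49. The healthy nodes were close to one another in this balance, whereas the DLBCL nodes were spread from 54.2% miR-181a in DLBCL5 to 77.4% in DLBCL4. The ratio was more even among healthy nodes than the level of either member, whose log2 SD in them was 0.62 for miR-181a and 0.49 for miR-181b, beside 0.14 for the ratio.

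With any single library left out, the difference was between -1.09 and -0.78. The call held without any 1 of the 6 DLBCL libraries (adjusted exact p 0.0238 to 0.0476) and was lost without any 1 of the 4 healthy libraries (adjusted exact p 0.0714 for each). Within the lower base-quality group, DLBCL4 and DLBCL6 (3.69 and 2.74) lay below all 4 healthy nodes, with a difference of -0.70 and an exact p of 0.0667, the smallest that 2 against 4 libraries can give (0.2 adjusted). The higher base-quality group held DLBCL nodes only and gives no comparison.

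**Figure D4:**
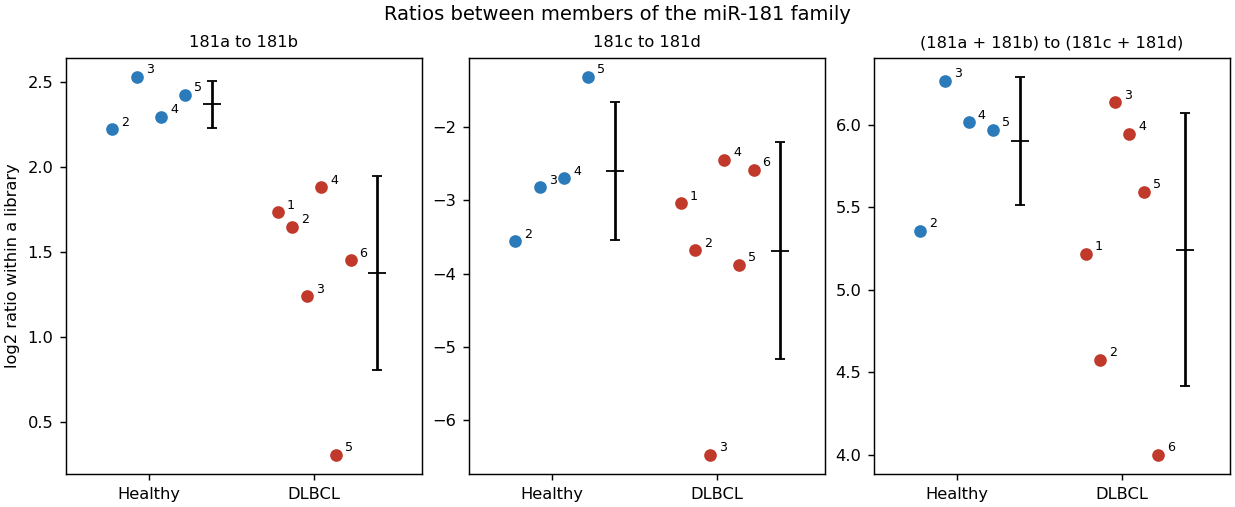
log2 ratios between members within each library, for 4 healthy (blue) and 6 DLBCL (red) nodes; each point is 1 library with its number, and the black marks are the group mean and SD. For miR-181a to miR-181b the healthy points lie between 2.22 and 2.53 and the DLBCL points between 0.31 and 1.88, with no overlap, while the other ratios overlap.

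The other balances in the family did not pass. The ratio of miR-181c to miR-181d, which share a locus, was 0.0848, 0.141, 0.154 and 0.401 in the healthy nodes and 0.122, 0.0777, 0.0112, 0.183, 0.0678 and 0.166 in the DLBCL nodes. The groups overlapped, with DLBCL3 lowest and Healthy5 highest, and the difference in mean log2 ratio was -1.09 (exact permutation p = 0.262, 0.262 adjusted). It was -0.53 without DLBCL3 and 0.08 within the lower base-quality group, and the value of DLBCL3 itself has an exact 95% interval of 0.000281 to 0.0642. The ratio of miR-181a and miR-181b together to miR-181c and miR-181d together ranged from 16.0 to 70.4 in DLBCL and from 41.0 to 77.1 in healthy nodes, with a log2 difference of -0.66 (exact permutation p = 0.181, 0.262 adjusted).

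Among the 6 DLBCL nodes, DLBCL3 stood apart for this family. It held the lowest level of all 10 libraries for 4 of 4 members, which was also true of 84 of the 247 miRNAs tested (34.0%). Among DLBCL nodes the SD of log2 CPM was 1.20 for miR-181a, 1.32 for miR-181b, 2.10 for miR-181c and 1.34 for miR-181d, beside a median of 1.07 over all miRNAs tested. In healthy nodes the SDs were 0.62, 0.49, 1.01 and 0.17, beside a median of 0.54, and that of miR-181d was the 14th lowest of 247. Without DLBCL3, which was left out after seeing the data, the SDs among the other 5 DLBCL nodes were 0.87, 1.13, 0.46 and 0.47 in the same order, beside a median of 0.80, so that the spread of miR-181c and miR-181d in DLBCL rested on that library.

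Within DLBCL, miR-181a and miR-181b had a Pearson r of 0.90 over the 6 libraries (exact permutation p = 0.0181, 0.095 adjusted over the 6 pairs of members) and a Spearman rho of 0.94 (p = 0.0167, 0.1 adjusted, exact permutation). With the 2 libraries farthest from the median left out, this r was 0.90 over 4 libraries (exact permutation p = 0.125, 0.75 adjusted). The libraries left out were chosen by the first-named member of a pair only. Without DLBCL3 it was 0.83 (exact permutation p = 0.0833, 0.5 adjusted). miR-181c and miR-181d had an r of 0.94 (exact permutation p = 0.0792, 0.095 adjusted) and a rho of 0.54 (p = 0.297, 0.357 adjusted, exact permutation). That relation rested on DLBCL3, since r was 0.07 without it and 0.15 without the 2 farthest libraries. The remaining 4 pairs had r between 0.62 and 0.81, and between -0.07 and 0.62 without DLBCL3. No pair passed the adjustment over the 6 pairs on log2 CPM, whereas on log2 TPM 4 of the 6 had an adjusted exact permutation p of 0.0458.

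Across all 10 libraries, the miRNAs whose log2 CPM was most like that of a member are given as a description, with libraries shared and groups mixed. For miR-181a these were miR-26a (r = 0.96), miR-216a (r = 0.92) and miR-146a (r = 0.88), and for miR-181b they were miR-181a (r = 0.86), miR-628 (r = 0.83) and miR-26a (r = 0.82). For miR-181a, miR-181b came next at place 4 (r = 0.86). After each group's mean was subtracted, miR-26a stayed first with miR-181a (r = 0.94) and miR-181b stood at place 2 (r = 0.91). miR-216a then had 0.85 and miR-146a 0.77, so their places above miR-181b depended on the group difference. miR-181c was most like miR-455 (r = 0.95), miR-338 (r = 0.93) and miR-326 (r = 0.93), and miR-181d was most like miR-326 (r = 0.97), miR-8859a (r = 0.97) and miR-455 (r = 0.96). The Spearman rho of miR-181c was 0.67 with miR-455, 0.89 with miR-338 and 0.58 with miR-326. That of miR-181d was 0.79 with miR-326, 0.72 with miR-8859a and 0.68 with miR-455. Like miR-181c and miR-181d, miR-455, miR-338, miR-326 and miR-8859a were each lowest in DLBCL3 (44.4, 0.188, 0.471 and 5.55 CPM). These r values were not computed without DLBCL3. Neither miR-181c nor miR-181d had another member of the family among its 3 most similar miRNAs.

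Beside the family, 16 miRNAs known from lymphocytes and lymphoma were all tested, of which 1 was higher and 2 were lower in DLBCL by edgeR, where 3.64% and 2.02% of all miRNAs tested were. Their median log2 fold change was 0.33, beside 0.13 over all miRNAs tested. miR-150, which marks mature resting lymphocytes, fell by 2.97 on the log2 scale (adjusted p = 0.00687), and miR-146a, a brake on NF-kB signaling, fell by 1.46 (adjusted p = 0.0397). The mean of miR-34a, a p53 target, rose from 18.4 ± 7.05 CPM in healthy nodes (SD, n = 4) to 295 ± 270 CPM in DLBCL (SD, n = 6, edgeR adjusted p = 0.0397). DLBCL3 went the other way, at 4.05 CPM below every healthy node, whereas every other DLBCL node lay above the healthy range. miR-142 and miR-155, which are broadly expressed in blood cells and in activated B cells, had log2 fold changes of 0.22 and 0.44 (adjusted p = 0.697 and 0.568). The log2 fold change of miR-181a, -1.49, was thus close in size to that of miR-146a, whose SE was 0.35 beside 0.55 for miR-181a, and of this pair only miR-146a passed the threshold.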

How the data were processed

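Small RNA reads of 10 lymph nodes were trimmed, cleared of repeats and other small RNA classes, mapped with Bowtie (0.12.9 in the submitters' processing notes, which name CanFam 3.1) and counted on mature canine miRNAs of miRBase with miRDeep2. The authors deposited raw read counts of 320 miRNAs and TPM values, which were the same counts divided by each library's miRNA total, to within 4.55e-05 TPM. Multiple mapping between near-identical miRNAs is not described in the sources used here.

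From the counts, edgeR 4.0.16 in R 4.3.3 was used with TMM, its default filter on low counts (247 miRNAs left), the quasi-likelihood test and Benjamini-Hochberg adjustment, and a prior count of 2 for log2 CPM. The test was checked on simulated counts. Alternatives were DESeq2 1.42.0 (the authors' tool, 1.12.0 in their notes), limma 3.58.1, other scalings and filters, base-quality groups (a division made for this work from the share of high-quality bases in the study's read statistics), a replicate block and each library left out. Ratios within a library, the order of levels and correlations were tested by two-sided exact permutation (Python 3.11.15, scipy 1.17.1). The 4 members, the lists and the tests were chosen with earlier results of these data known. Named miRNAs were the members, the lists and the 3 most alike rows per member, with miR-148a added after its values were seen.

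Replicates are separate dogs. No pair of libraries of a group agreed within sampling noise (smallest chi-square per degree of freedom 1865). A count of 3 reads corresponds to 0.0864 to 0.281 TPM. Only neighbors and containing genes were taken from the gene table. Numeric coordinates are not given, since that gene table is of another build than the files.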

Additional observations from a re-analysis of the deposited data

Results flagged for a closer look

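In 3 of the 16 sets of values examined, 1 library lay farther from the others than Dixon's 95% limit, and in each it was DLBCL3. The sets were the log2 CPM of each member, the log2 ratios between members and the log2 share of the family, in each group. About 5% of such sets exceed this limit by chance, and the sets share libraries. DLBCL3 was the lowest library for 34.0% of the 247 miRNAs tested, and how many of those exceed the limit was not computed. The flagged ratio is made from the flagged members, so the 3 flags are not separate. The log2 CPM of miR-181c was -2.94 in DLBCL3, with the nearest DLBCL library at 1.59. The log2 CPM of miR-181d was 2.09 in DLBCL3, with the nearest at 4.60. The log2 ratio of miR-181c to miR-181d was -6.48 in DLBCL3, with the nearest at -3.88. The values of miR-181c and of the ratio rest on 1 read of miR-181c beside 89 reads of miR-181d in that library.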

How the results depend on the processing

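miR-181a had a log2 fold change below 0 under all 22 alternatives run. It passed the threshold under 2 of them, limma-voom with sample quality weights (-1.74) and without DLBCL4, and ranged from -1.84 to -1.26 with single libraries left out (edgeR adjusted p 0.0453 to 0.226). Scaling to all miRNA reads turned the direction of miR-181b (0.13) and miR-181d (0.33). With single libraries left out, miR-181b ranged from -0.95 to -0.11, miR-181c from -1.55 to -0.66 and miR-181d from -0.58 to -0.17, none past the threshold. miR-181c was not tested where at least 10 reads were required in every library. The number of miRNAs called among all tested, 14 (9 higher, 5 lower), was 8 with DESeq2 size factors, 23 with total miRNA reads (22 higher, 1 lower), 45 with DESeq2, 46 with limma-voom, 7 with the base-quality group as a covariate, 46 within the lower base-quality group, and 1 (without Healthy4) to 23 (without DLBCL4) with single libraries left out. The cause of these changes was not tested.

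The difference in the ratio of miR-181a to miR-181b was -0.70 within the lower base-quality group (adjusted exact p = 0.2), -0.81 as a difference of group medians (adjusted exact permutation p = 0.114) and -1.09 to -0.78 with single libraries left out. The ratio of miR-181c to miR-181d turned to 0.084 within the lower base-quality group and ranged from -1.41 to -0.53 with single libraries left out, and the ratio of both pairs from -0.84 to -0.41. In the 4 healthy libraries alone the steps in the order of levels were 2.37, 3.53 and 2.60, where the exact test cannot go below p = 0.125. Among DLBCL nodes, the correlation of miR-181a with miR-181c turned to -0.64 without the 2 farthest libraries, and that of miR-181b with miR-181c to -0.070 without DLBCL3, an alternative chosen after seeing the data. On log2 TPM, 4 of the 6 correlations had an adjusted exact p of 0.0458.

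The replicate numbers did not pair the libraries: same-numbered libraries had correlations of deviations of 0.26, -0.01, -0.30 and -0.33, and 1 of 4 matched its own number best. With the replicate number as a block, 1 miRNA was called and miR-181a had -1.42 (edgeR adjusted p = 0.365). Over the 4 same-numbered pairs, which leave out DLBCL1 and DLBCL6, the ratio of miR-181a to miR-181b differed by -1.10. The exact sign-flip p was 0.125 (0.188 adjusted), the smallest raw p that 4 pairs can give, so this test could not pass.

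The number of dogs and the spread between libraries (biological coefficient of variation 0.731 over all 10) limit the comparisons. Counting error was widest for miR-181c in DLBCL3, with 1 read.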
